A study of Mus musculus with 12 samples.

Results

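The genes described here are 32 components and targets of the unfolded protein response and the integrated stress response, chosen by symbol from the 14096 genes listed for each mouse. All 32 were listed. They comprise 14 chaperones and folding enzymes of the endoplasmic reticulum (ER), 8 genes of ER-associated degradation (ERAD) and the ER translocon, 5 sensors and transcription factors, and 5 targets of ATF4 and CHOP. Their mRNA was measured by sequencing of glomeruli, the filtering units of the kidney, from 12 male mice in 4 groups of 3. Every mouse lacked endothelial nitric oxide synthase (eNOS−/−, C57BL/6J background), in which diabetes is known to produce a more severe kidney disease. Nondiabetic mice had received citrate buffer, and diabetic mice streptozotocin (STZ), a toxin of insulin-producing cells, at 50 mg/kg on each of 5 days from 8 weeks of age. Arctigenin (ATG), a plant lignan, was given at 40 mg/kg per day by gavage from 10 weeks after induction for 8 weeks, and the other mice received the vehicle, 5% DMSO. Tissue was taken 18 weeks after induction, at about 26 weeks of age. A treatment note in the labels speaks of dissociated cells sorted on a fluorescent reporter, of which the study's methods say nothing, and the samples are taken here to be intact glomeruli.

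Secreted and membrane proteins fold in the ER with the help of chaperones such as BiP. When unfolded proteins accumulate, the sensors IRE1, ATF6 and PERK release BiP. IRE1 splices the Xbp1 mRNA, and spliced XBP1 and cleaved ATF6 are known to switch on chaperone and ERAD genes. PERK phosphorylates the translation factor eIF2, which lowers protein synthesis while ATF4 is translated more, and ATF4 with its target CHOP (Ddit3) switches on amino acid and cell death genes. Other eIF2 kinases sense amino acid shortage, viral RNA and heme deficiency and lead to ATF4 without an ER signal, the integrated stress response. Podocytes and other glomerular cells secrete much of the glomerular basement membrane and so carry a large ER. Phosphorylation, splicing and cleavage are not visible in a gene's summed reads.

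The listed genes took 23.6 M to 29.8 M reads (M for mega) in each mouse, and 14087 of them had at least 10 reads in all mice. Replicate mice correlated with Pearson's r of 0.972 to 0.994 across genes. The mean log2 value of 22 podocyte markers was between 12.9 and 14.4 in every mouse. That of 33 tubule markers was 12.4 to 13.8 in the 6 nondiabetic mice and 10.6 to 11.9 in the 6 diabetic mice, which did not overlap. Of these 33 markers, 22 were lower in diabetes under vehicle and 31 under ATG. Of 15 leukocyte markers, 6 and 8 were higher. Endothelial markers were higher for 7 of 18 under vehicle and 17 of 18 under ATG (medians 0.37 and 0.98), mesangial markers for 1 and 9 of 13 (3 were lower under vehicle), and podocyte markers for 0 and 5 of 22. These are counts of genes called by limma at an adjusted p under 0.05. Of all genes 10.2% were called higher and 8.63% lower under vehicle, and 25.9% and 20.8% under ATG. All 10 immediate early genes, which respond to handling of tissue, had negative differences with diabetes under vehicle (median −0.90, 1 called). Bulk values cannot tell fewer cells of a type from less RNA per cell. Mouse labels open with a part that differs between groups, and any preparation batch it names is confounded with group and cannot be told apart. Mouse 1 of either nondiabetic group (the unnumbered mouse) carries a label part of its own without a number.

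Promoters were searched for the sequences through which these factors are known to act, and examples are shown for genes in which a match was found. Windows from 250 bases before to 50 bases after the start site (RefSeq, GRCm38.p6) nearest the gene start in the deposited annotation were found for 28 of the 32 members and for 10786 listed genes. Hyou1, Manf, Derl1 and Atf6 had no window. The ER stress response element (ERSE, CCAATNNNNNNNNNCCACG) was searched on both strands. It was present in 0.176% of all windows, 19 in number, and 9 of those 19 belonged to members. These were 7 of 12 chaperones, Syvn1 and Derl3. In the stretches below, written 5′ to 3′ on the gene's strand, capitals mark the match, which is on the opposite strand in Calr, Creld2 and Derl3.
Hspa5, chr2:34772000-34772068, match from 65 bases before the start: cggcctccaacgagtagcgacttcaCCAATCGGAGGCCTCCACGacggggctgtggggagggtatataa
Calr, chr8:84847050-84847118, from 162 bases before: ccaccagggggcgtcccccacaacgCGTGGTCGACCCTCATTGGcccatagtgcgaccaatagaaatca
Creld2, chr15:88819495-88819563, from 126 bases before: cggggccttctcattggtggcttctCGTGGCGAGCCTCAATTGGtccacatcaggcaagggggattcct
Derl3, chr10:75893217-75893285, from 156 bases before: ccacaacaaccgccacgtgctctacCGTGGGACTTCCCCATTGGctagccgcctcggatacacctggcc
Hsp90b1 held 2 matches, from 212 and 107 bases before the start. Canx, Pdia6 and Dnajc3 held 1 each, from 145, 98 and 105 bases before. The variant ERSE-II (ATTGG, any base, then CCACG) was in 0.0649% of windows, 7 in number, among them Dnajb11 and Herpud1. A match to UPRE (TGACGTGG, 0.816% of windows) was found in no member. The windows of Pdia3, Pdia4, Dnajb9 and Sdf2l1 held none of the motifs searched.

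The C/EBP-ATF response element (CARE, TGATGNAA), to which ATF4 is known to bind with C/EBP partners, was in 2.15% of windows. It was found in 3 of the 5 ATF4 and CHOP targets (Trib3, Chac1 and Asns), in Herpud1 and in no chaperone. Ddit3 and Ppp1r15a held none. The match is on the opposite strand in Trib3 and Chac1, where capitals mark it.
Asns, chr6:7693210-7693257, match from 23 bases before the start: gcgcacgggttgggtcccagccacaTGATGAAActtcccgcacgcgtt
Chac1, chr2:119351024-119351081, from 193 bases before: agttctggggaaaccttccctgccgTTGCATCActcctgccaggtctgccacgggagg
Trib3, chr2:152344028-152344057, from 14 bases after the start: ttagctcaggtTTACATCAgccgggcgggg
Only Herpud1 held 2 kinds of motif, an ERSE-II from 52 bases before and a CARE from 112 bases before the start, which do not overlap. A match in these windows is a description of the letters and not a bound site.

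The authors' values are log2 of reads scaled by 1 factor per library, not divided by length. Per kilobase of transcript, the 6 most abundant members were chaperones, while others such as Sdf2l1 (9.86) lay below Ddit3 (9.99). Calr stood highest (mean log2 per kilobase over the 12 mice 13.8, above 99.2% of listed genes), followed by Hsp90b1 (13.5), Hspa5 (13.4) and Pdia3 (13.0). Atf4 (11.3) and Xbp1 (11.4) lay above 93.4% and 93.9% of genes. Ern1, which encodes IRE1, was above 42.0% (7.85). Trib3 (4.93), Derl3 (5.42) and Chac1 (5.76) were the scarcest, with 30 to 129, 24 to 128 and 42 to 127 reads per mouse. Every listed gene reached a value of 100, back on the linear scale, in some mouse. Trib3 and Chac1 did so only in diabetic mice and Derl3 only in nondiabetic mice, so their listing rests on those mice.

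Few members differed with diabetes. In vehicle-treated mice 1 of 32 members passed the test (limma, p adjusted by the Benjamini-Hochberg method across the whole table, under 0.05), against 18.9% of all genes, and it was higher (10.2% of all genes were called higher and 8.63% lower). In ATG-treated mice 4 of 32 passed, against 46.7% of all genes, and all 4 were higher (25.9% of all genes were called higher and 20.8% lower). These comparisons share no mouse. All 4 belong to the ATF4 arm, and Trib3 and Chac1 among them are listed only through their values in diabetic mice. Endothelial, mesangial, podocyte, leukocyte and tubule markers were called in the same ATG comparison, as given above, and their part in these calls was not tested beyond the tubule covariate below. No chaperone was called in either comparison, with 5 and 0 of 14 at an unadjusted p under 0.05, where 35.5% and 54.4% of all genes were. With limma-voom on recovered reads 1 and 4 members were called, and again no chaperone.

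**Figure D1:**
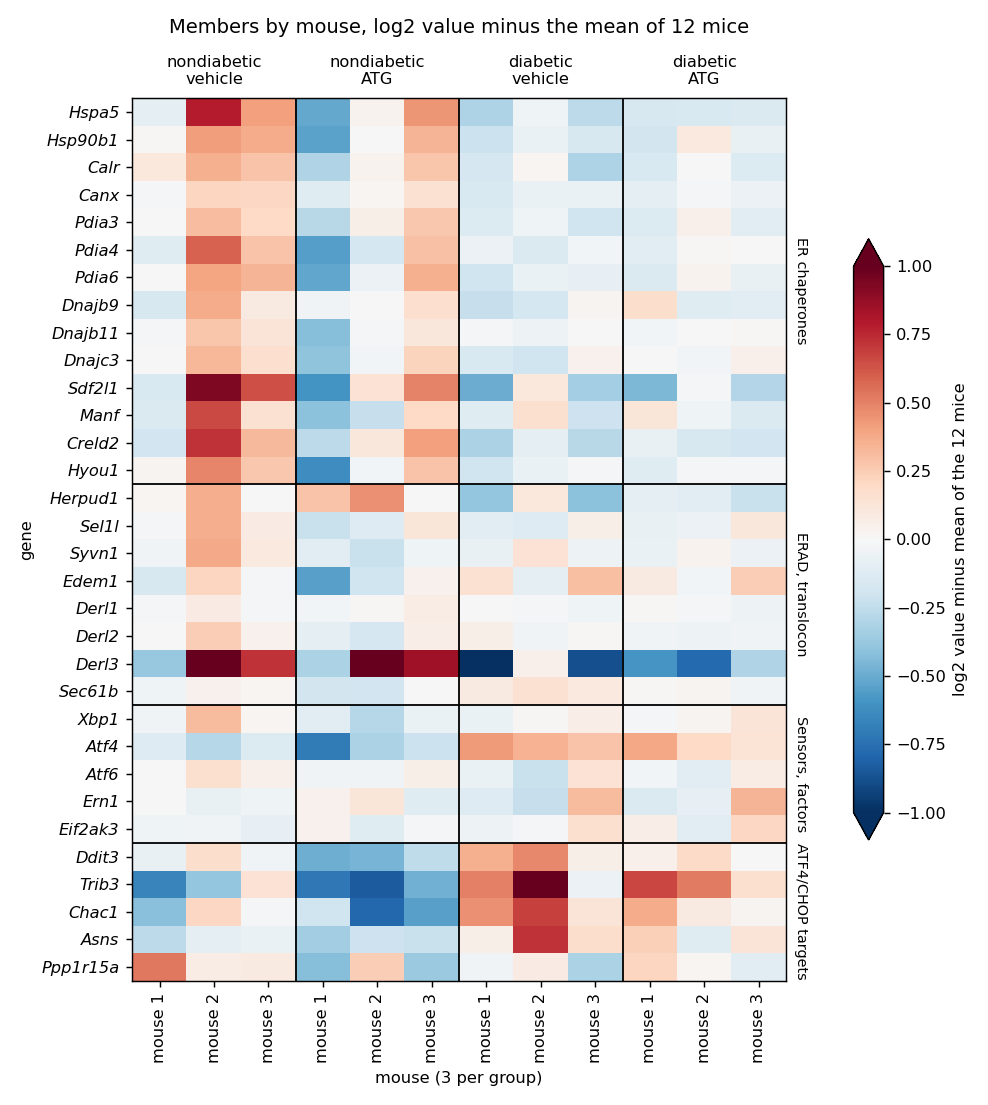
Heat map of the 32 genes (vertical axis, by role) in the 12 mice (horizontal axis, 3 per group), coloured by the log2 value minus that gene's mean over the 12 mice. The 14 chaperones as a group (by median SD) vary less in the diabetic mice, and among nondiabetic mice they share an order, with mouse 1 lowest in both nondiabetic groups, and Atf4 is above its mean in all 6 diabetic mice.

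Hspa5 encodes BiP, the main ER chaperone and the partner that the stress sensors release. Its log2 value was 14.69, 15.57 and 15.19 in the vehicle-treated nondiabetic mice (15.15 ± 0.44, SD, n = 3) and 14.47, 14.74 and 14.52 in the vehicle-treated diabetic mice (14.57 ± 0.14, SD, n = 3). The groups overlapped through nondiabetic mouse 1, and the difference was −0.57 ± 0.24 (SE; limma, adjusted p = 0.12). Sdf2l1, a BiP cofactor, was at 9.86, 10.94 and 10.65 without diabetes and 9.51, 10.12 and 9.67 with it, a difference of −0.72 ± 0.31 (SE; limma, adjusted p = 0.123). Creld2, an ER-resident protein with isomerase activity, was at 10.72, 11.64 and 11.24 without and 10.60, 10.82 and 10.64 with diabetes, a difference of −0.51 ± 0.21 (SE; limma, adjusted p = 0.105). In these 3 genes mouse 1 of the nondiabetic group read like the diabetic mice and the others read higher.

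The lectin chaperones calreticulin (Calr) and calnexin (Canx), which hold glycoproteins until they fold, did not overlap between the groups. Calr was at 14.88, 15.13 and 15.06 in nondiabetic and 14.61, 14.79 and 14.47 in diabetic vehicle-treated mice, a difference of −0.40 ± 0.15 (SE; limma, adjusted p = 0.0783). Canx was at 13.96, 14.19 and 14.19 against 13.83, 13.91 and 13.92, a difference of −0.23 ± 0.093 (SE; limma, adjusted p = 0.106). Hsp90b1, the ER form of HSP90, was at 14.96, 15.37 and 15.32 against 14.73, 14.88 and 14.79. Its groups did not overlap either, with an adjusted p of 0.154 (limma). The disulfide isomerases Pdia3 and Pdia6 and the BiP exchange factor Hyou1 likewise did not overlap, so that 6 of 14 chaperones were lower in every diabetic mouse, where 18.7% of all genes were lower and 23.0% higher in that way. Pdia6 shares 50 bases with Atp6v1c2 on the other strand, and the strand setting of the counting is not given in the sources used here.

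All 14 chaperones had a negative difference in vehicle-treated mice, between −0.72 and −0.15, with a median of −0.34 against 0.0075 over all genes. In the vehicle-treated nondiabetic group, mouse 1 was the lowest and mouse 2 the highest for 14 of 14 chaperones. Among ATG-treated nondiabetic mice, mouse 1 was the lowest and mouse 3 the highest for 14 of 14. This order, read off the chaperones themselves, was found in 4.92% of all listed genes, in 16 of 49 other secretory pathway genes, in 7 of 19 cytosolic heat shock genes and in 8 of 22 podocyte markers, and in no tubule, endothelial or mesangial marker. The median SD of a chaperone was 0.225 in vehicle-treated and 0.325 in ATG-treated nondiabetic mice, against 0.109 and 0.0719 in the diabetic groups. Over all genes it was 0.0888, 0.162, 0.144 and 0.0991 in the same order. Hspa5 was at 14.62, 14.63 and 14.64 in the ATG-treated diabetic mice and between 14.26 and 15.22 in the ATG-treated nondiabetic mice.

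The calls on chaperones depended on which nondiabetic mice were in the fit. Without both unnumbered mice, which leaves 2 mice in each nondiabetic group, 10 of 14 chaperones were called lower in vehicle-treated diabetic mice, and 11 of the 32 members in all, where 5.28% of all genes were called lower. Hspa5 was then at −0.80 ± 0.16 (SE; limma, adjusted p = 0.0177) and Creld2 at −0.75 ± 0.13 (SE; limma, adjusted p = 0.0129). Dnajb9, Dnajb11, Dnajc3 and Manf were not called. Without only the vehicle-treated mouse 1, Creld2 was the sole chaperone called. Without ATG-treated nondiabetic mouse 1, or without mouse 3 of that group, Calr was the sole chaperone called (−0.40; limma, adjusted p = 0.0363 without mouse 3). In ATG-treated mice, leaving out both unnumbered mice added 2 calls with diabetes, Creld2 (−0.40; limma, adjusted p = 0.0464) and Derl3 (−1.68; adjusted p = 0.0086), both lower. Of all 14096 genes, 1837 were called lower there. Mouse 1 also stood apart in marker means. The immediate early mean was 13.39 in the vehicle-treated mouse 1 against 12.67 and 12.73 in the others of its group. In the ATG-treated mouse 1 the podocyte mean (12.87), the endothelial mean (11.92), the mesangial mean (10.92) and the immediate early mean (11.03) were the lowest of the 12 mice. With an immediate early covariate over all 12 mice, chosen after seeing the data, the chaperone median under vehicle was −0.29. The part of the podocyte, endothelial and mesangial means was not tested.

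In ATG-treated mice the chaperones differed little by diabetes. The differences ran from −0.27 (Sdf2l1) to 0.13 (Manf), 7 positive and 7 negative, with a median of −0.023 against 0.053 over all genes. The lowest adjusted p was 0.383 (limma). The interval of the difference was nonetheless wide, from −0.68 to 0.40 (95%) for Hspa5 and from −0.28 to 0.13 for Canx. No chaperone was apart between these groups, where 30.5% of all genes were higher and 25.6% lower without overlap. Their median difference moved between −0.19 and 0.15 as each mouse was left out in turn, the latter without ATG-treated nondiabetic mouse 3.

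Among the 8 ERAD and translocon genes none was called in either comparison by limma, with 2 and 2 at an unadjusted p under 0.05 (35.5% and 54.4% of all genes), or by limma-voom. Derl3, a derlin of secretory cells that helps retrotranslocate misfolded proteins, had the most negative difference of all members. It reached a linear value of 100 only in nondiabetic mice, so its listing rests on mice in which it was high. It was at 5.46, 7.10 and 6.55 in vehicle-treated and 5.52, 7.23 and 6.68 in ATG-treated nondiabetic mice, and at 4.79, 5.88 and 4.95 and at 5.24, 5.06 and 5.53 in the diabetic groups. With diabetes it differed by −1.16 ± 0.49 (SE; limma, adjusted p = 0.118) under vehicle and by −1.20 ± 0.49 (SE; limma, adjusted p = 0.0658) under ATG. Under ATG it was called lower without mouse 1 of either nondiabetic group, without both, and with an immediate early covariate. Here too mouse 1 lay apart from the other nondiabetic mice, within the diabetic range. Herpud1, a scaffold of the ERAD ligase, was lower in every ATG-treated diabetic mouse (12.46, 12.45 and 12.35) than in any ATG-treated nondiabetic mouse (12.85, 13.02 and 12.56), a difference of −0.39 ± 0.16 (SE; limma, adjusted p = 0.0612). It was called without nondiabetic mouse 3 of that group, without vehicle-treated diabetic mouse 2, with median-ratio scaling, with only the groups compared and with an immediate early covariate. Edem1, which directs misfolded glycoproteins to degradation, was at 0.11 ± 0.15 under vehicle and 0.33 ± 0.15 under ATG (SE; limma, adjusted p = 0.647 and 0.0985). Sec61b, a translocon subunit, was at 0.11 and 0.13, and under vehicle it was higher in every diabetic than in any nondiabetic mouse. Sel1l, Syvn1, Derl1 and Derl2, parts of the retrotranslocation complex, lay between −0.20 and 0.096 in both comparisons. Syvn1 shares 89 bases with Mrpl49 on the other strand.

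Of the sensors and transcription factors only Atf4 was called. The Atf4 transcript was at 11.95, 11.79 and 11.94 in vehicle-treated nondiabetic mice (11.89 ± 0.09, SD, n = 3) and at 12.50, 12.42 and 12.36 in vehicle-treated diabetic mice (12.43 ± 0.07, SD, n = 3). Under ATG it was at 11.38, 11.76 and 11.86 without diabetes (11.66 ± 0.25, SD, n = 3) and at 12.46, 12.27 and 12.21 with diabetes (12.31 ± 0.13, SD, n = 3). Every diabetic mouse was above every nondiabetic mouse, whatever the treatment. Atf4 was the only member for which the 6 diabetic and 6 nondiabetic mice did not overlap, where 13.3% of all genes were higher and 11.4% lower in that way. It rose 1.45-fold under vehicle (log2 0.54 ± 0.12, SE; limma, adjusted p = 0.013) and 1.57-fold under ATG (log2 0.65 ± 0.12, SE; limma, adjusted p = 0.00165).

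The vehicle call on Atf4 rested on each of 2 mice. Without diabetic mouse 1 it was 0.50 (limma, adjusted p = 0.0539), and without nondiabetic mouse 2 it was 0.49 (adjusted p = 0.0601). The ATG-treated call held without any single mouse. With tubule markers in the fit the differences were 0.60 (adjusted p = 0.128) and 0.73 (adjusted p = 0.157), larger and no longer called.

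The mRNA of the 3 sensors and of Xbp1 was not called. Xbp1 was at 12.49, 12.85 and 12.55 in vehicle-treated nondiabetic mice and at 12.46, 12.54 and 12.60 in vehicle-treated diabetic mice, a difference of −0.093 (interval −0.31 to 0.12). With ATG it was at 12.43, 12.25 and 12.46 against 12.52, 12.56 and 12.65, a difference of 0.20 (interval −0.02 to 0.41) without overlap. For Atf6 the differences were −0.12 and −0.014, for Ern1 0.026 and 0.023, and for Eif2ak3, which encodes PERK, 0.080 and 0.084, under vehicle and ATG.

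Of the 5 ATF4 and CHOP targets, none was called under vehicle and 3 rose under ATG, where 10.2% and 25.9% of all genes were called higher. At an unadjusted p under 0.05 these were 4 and 3, where 35.5% and 54.4% of all genes were, and limma-voom called 0 and 3. The median difference was 0.46 under vehicle and 0.48 under ATG, against 0.0075 and 0.053 over all genes. The vehicle median was 0.26 without vehicle-treated diabetic mouse 2, and the medians were 0.66 and 1.00 with the tubule covariate. Ddit3, which encodes CHOP, a transcription factor of ER stress and cell death, was at 9.63, 9.88 and 9.67 in nondiabetic and 10.06, 10.19 and 9.77 in diabetic vehicle-treated mice. It was at 9.22, 9.24 and 9.46 against 9.76, 9.90 and 9.71 in ATG-treated mice. The vehicle groups overlapped (log2 0.28 ± 0.12, SE; limma, adjusted p = 0.119) and the ATG groups did not (1.40-fold, log2 0.48 ± 0.12, SE; limma, adjusted p = 0.00703). Ddit3 shares 68 bases with Mars, a methionyl-tRNA synthetase gene on the other strand, itself called higher in both comparisons. How much of Ddit3 that overlap holds was not tested.

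Trib3, a pseudokinase known as a target of CHOP and ATF4, had the largest positive difference of the 32. It reached a linear value of 100 only in vehicle-treated diabetic mouse 2, so its listing rests on a mouse in which it was high. It was at 5.30, 5.58 and 6.11 without and 6.47, 7.11 and 5.91 with diabetes under vehicle, overlapping through diabetic mouse 3 (log2 0.83 ± 0.30, SE; limma, adjusted p = 0.0746). Under ATG it was at 5.25, 5.14 and 5.48 against 6.63, 6.48 and 6.13, without overlap (2.18-fold, log2 1.12 ± 0.30, SE; limma, adjusted p = 0.0113). Without vehicle-treated diabetic mouse 3, the vehicle comparison called Ddit3 (0.39, adjusted p = 0.0356) and Trib3 (1.13, adjusted p = 0.0279).

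Chac1, which degrades glutathione, was at 5.99, 6.61 and 6.40 against 6.86, 7.09 and 6.54 under vehicle, where the groups overlapped (log2 0.50 ± 0.22, SE; limma, adjusted p = 0.128). With ATG it was at 6.21, 5.62 and 5.86 against 6.78, 6.50 and 6.43 without overlap (1.60-fold, log2 0.68 ± 0.22, SE; limma, adjusted p = 0.0258). This call was lost without ATG-treated diabetic mouse 1 (log2 0.57), diabetic mouse 2 (0.71) or nondiabetic mouse 2 (0.54). Chac1 reached a linear value of 100 only in diabetic mice, so its listing rests on mice in which it was high. Asns, asparagine synthetase, was at 8.20, 8.37 and 8.40 against 8.53, 9.19 and 8.65 under vehicle and at 8.12, 8.26 and 8.25 against 8.71, 8.35 and 8.60 under ATG. Neither pair of groups overlapped, and the differences were 0.46 ± 0.16 and 0.34 ± 0.16 (SE; limma, adjusted p = 0.0652 and 0.103). Ppp1r15a, which encodes GADD34, the phosphatase subunit that reverses eIF2 phosphorylation, was the exception in sign under vehicle only. It was at 11.18, 10.72 and 10.74 against 10.61, 10.73 and 10.33 under vehicle (−0.32 ± 0.19, SE; limma, adjusted p = 0.246) and at 10.22, 10.89 and 10.28 against 10.86, 10.67 and 10.54 under ATG (0.23 ± 0.19, SE; limma, adjusted p = 0.339).

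**Figure D2:**
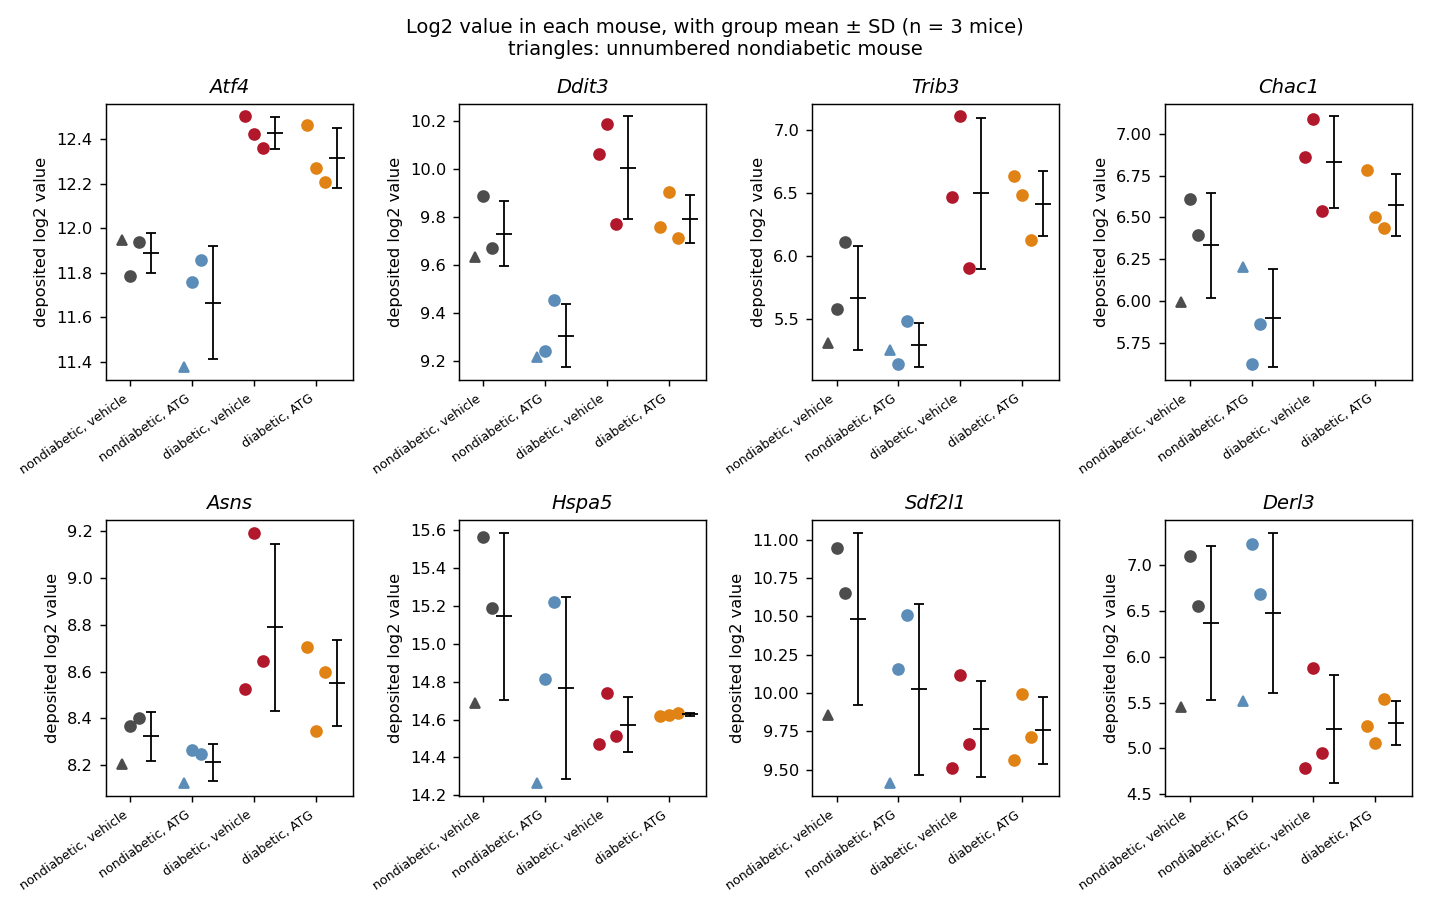
Deposited log2 value (vertical axis, a range of its own for each gene) of 8 members in each mouse, with the mean and SD of each group of 3 mice beside the points and triangles for the unnumbered mouse of each nondiabetic group. The 6 diabetic mice are above the 6 nondiabetic mice for Atf4 (at least 12.21 against at most 11.95), and for Hspa5, Sdf2l1 and Derl3 the triangles lie below the other nondiabetic mice.

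Under vehicle the median of the chaperones lay below that of all genes and the median of the ATF4 and CHOP targets above it, with Ppp1r15a on the side of the chaperones. As a description, the mean log2 value of the 5 targets minus that of the 14 chaperones was −4.78, −5.15 and −4.91 in vehicle-treated and −4.69, −5.05 and −5.32 in ATG-treated nondiabetic mice. It was −4.19, −3.98 and −4.52 in vehicle-treated and −4.25, −4.49 and −4.52 in ATG-treated diabetic mice. Every diabetic mouse was above every nondiabetic mouse (at least −4.52 against at most −4.69), where 13.3% of single genes were higher in that way. The target mean holds Trib3 and Chac1, which are listed only through diabetic mice. Scores of other gene sets were not compared. Under vehicle the chaperone mean was 13.13 ± 0.27 (SD, n = 3) without and 12.77 ± 0.07 with diabetes, and the target mean 8.19 ± 0.11 and 8.54 ± 0.31. Under ATG the chaperone means were 12.85 ± 0.34 and 12.82 ± 0.04 and the target means 7.83 ± 0.03 and 8.40 ± 0.13. The target means of nondiabetic and diabetic mice overlapped under vehicle, through diabetic mouse 3 (8.24), and not under ATG, and the chaperone means overlapped under both treatments.

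Tubule markers moved with diabetes in the same mice. With their mean as a covariate, no member was called in either comparison, and 270 and 83 of all genes were called. The median of the targets was then 0.66 under vehicle and 1.00 under ATG, and that of the chaperones −0.51 and −0.19. Herpud1 and Ppp1r15a turned from −0.36 and −0.32 to 0.15 and 0.30 under vehicle, and Edem1, Ern1 and Eif2ak3 turned negative. Since the 6 diabetic and 6 nondiabetic mice did not overlap in the tubule marker mean, diabetes and tubule content cannot be told apart in these differences. Within the nondiabetic groups the chaperone means of mice 1 to 3 were 12.84, 13.38 and 13.17 at tubule marker means of 12.99, 12.85 and 12.44 under vehicle. They were 12.50, 12.88 and 13.18 at 13.44, 13.77 and 13.17 under ATG.

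**Figure D3:**
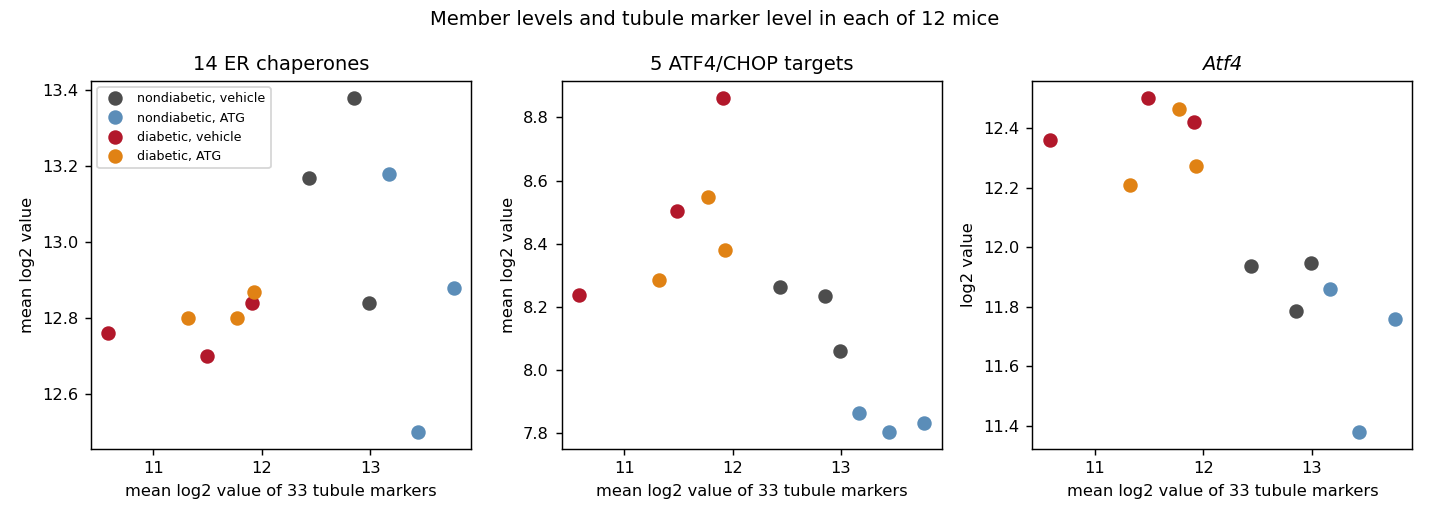
Mean log2 value of the 14 ER chaperones, mean of the 5 ATF4 and CHOP targets, and Atf4 (vertical axes) against the mean log2 value of 33 tubule markers (horizontal axes), 1 point per mouse, coloured by group. Diabetic mice lie at tubule means of 11.9 or less and nondiabetic mice at 12.4 or more, with the targets and Atf4 higher on the diabetic side and the chaperones most spread on the nondiabetic side.

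ATG treatment of diabetic mice left no call on any member. By limma 0 of 32 members and 0% of all genes passed, with 0 members and 4.51% of all genes at an unadjusted p under 0.05, and limma-voom also called none. Differences ran from −0.26 (Chac1) to 0.13 (Ppp1r15a), with a median of 0.052 for the chaperones and −0.22 for the ATF4 and CHOP targets against −0.0051 over all genes. In the same comparison all 15 leukocyte markers had negative differences (median −0.54, 0 called, 7 at an unadjusted p under 0.05) and 31 of 33 tubule markers positive ones (median 0.37). With the tubule covariate the medians were 0.080 and −0.28, and the part of the leukocyte markers was not tested. For Hspa5 the difference was 0.053 (interval −0.48 to 0.59), for Atf4 −0.11 (−0.37 to 0.14) and for Ddit3 −0.22 (−0.47 to 0.04). Derl2 and Sec61b were lower in every ATG-treated diabetic mouse than in any vehicle-treated one, and no member was higher in that way (6.32% and 3.85% of all genes). For Derl2 the groups all but touched, since the highest ATG-treated and the lowest vehicle-treated value both round to 10.899. Without vehicle-treated diabetic mouse 2, which was the highest of its group for all 5 targets, the median of the targets was −0.035.

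In nondiabetic mice ATG gave no call on a member by limma or limma-voom, against 5.22% of all genes called. Of those genes 13.6% were higher, and 24.2% of those called under median-ratio scaling. Ddit3, Syvn1, Xbp1 and Ppp1r15a had an unadjusted p under 0.05 (30.2% of all genes did), all with lower values under ATG. Ddit3 was 9.31 ± 0.13 against 9.73 ± 0.14 (SD, n = 3), a difference of −0.42 ± 0.12 (SE; limma, adjusted p = 0.0588), and that of Xbp1 was −0.25 ± 0.098 (SE; limma, adjusted p = 0.127). Ddit3, Syvn1 and Xbp1 did not overlap between the groups and were lower, where 20.0% of all genes were lower and 14.4% higher in that way. All 14 chaperones and all 5 targets had negative differences, with medians of −0.28 and −0.42 against −0.039 over all genes. The chaperone median was −0.094 without ATG-treated mouse 1, −0.17 without vehicle-treated mouse 2, −0.44 without vehicle-treated mouse 1 and −0.46 without ATG-treated mouse 3. Without ATG-treated mouse 3, 7 members were called lower (Hsp90b1, Pdia4, Pdia6, Dnajb11, Hyou1, Sec61b and Ddit3), where 17.5% of all genes were. In the same comparison 8 of 18 endothelial and 8 of 13 mesangial markers were called lower, the median of 22 podocyte markers was −0.57 and that of the tubule markers 0.76. All 10 immediate early genes (median −0.82) and all 15 leukocyte markers (median −0.49) had negative differences, with none called. With the tubule covariate no member was called there, and the medians of the chaperones and targets were −0.25 and −0.56. With the immediate early covariate the medians were −0.22 and −0.33. The part of the endothelial, mesangial, podocyte and leukocyte markers in the members' differences was not tested.

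The effect of diabetes was not shown to differ between vehicle and ATG for any member. For the difference between both effects, limma called 0 of 32 members and 0.546% of all genes, no member had an unadjusted p under 0.05 (12.9% of all genes did), and limma-voom called none. All 14 chaperones had a positive term, with a median of 0.36 against 0.015 over all genes, and the lowest adjusted p among them was 0.478. That median was 0.15 without ATG-treated nondiabetic mouse 1, 0.22 without vehicle-treated nondiabetic mouse 2 and 0.53 without ATG-treated nondiabetic mouse 3. Marker terms were positive as well, for 13 of 13 mesangial (median 1.03, 2 called), 18 of 18 endothelial (0.58, 1 called), 21 of 22 podocyte (0.51) and 10 of 10 immediate early genes (1.20), and their part was not tested beyond an immediate early covariate, with which the chaperone median was 0.27. The lowest adjusted p of all members was that of Xbp1 (0.29 ± 0.14, SE; limma, adjusted p = 0.406). The diabetes comparisons and the ATG comparisons are made of the same 4 groups, so they are not separate evidence.

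**Figure D4:**
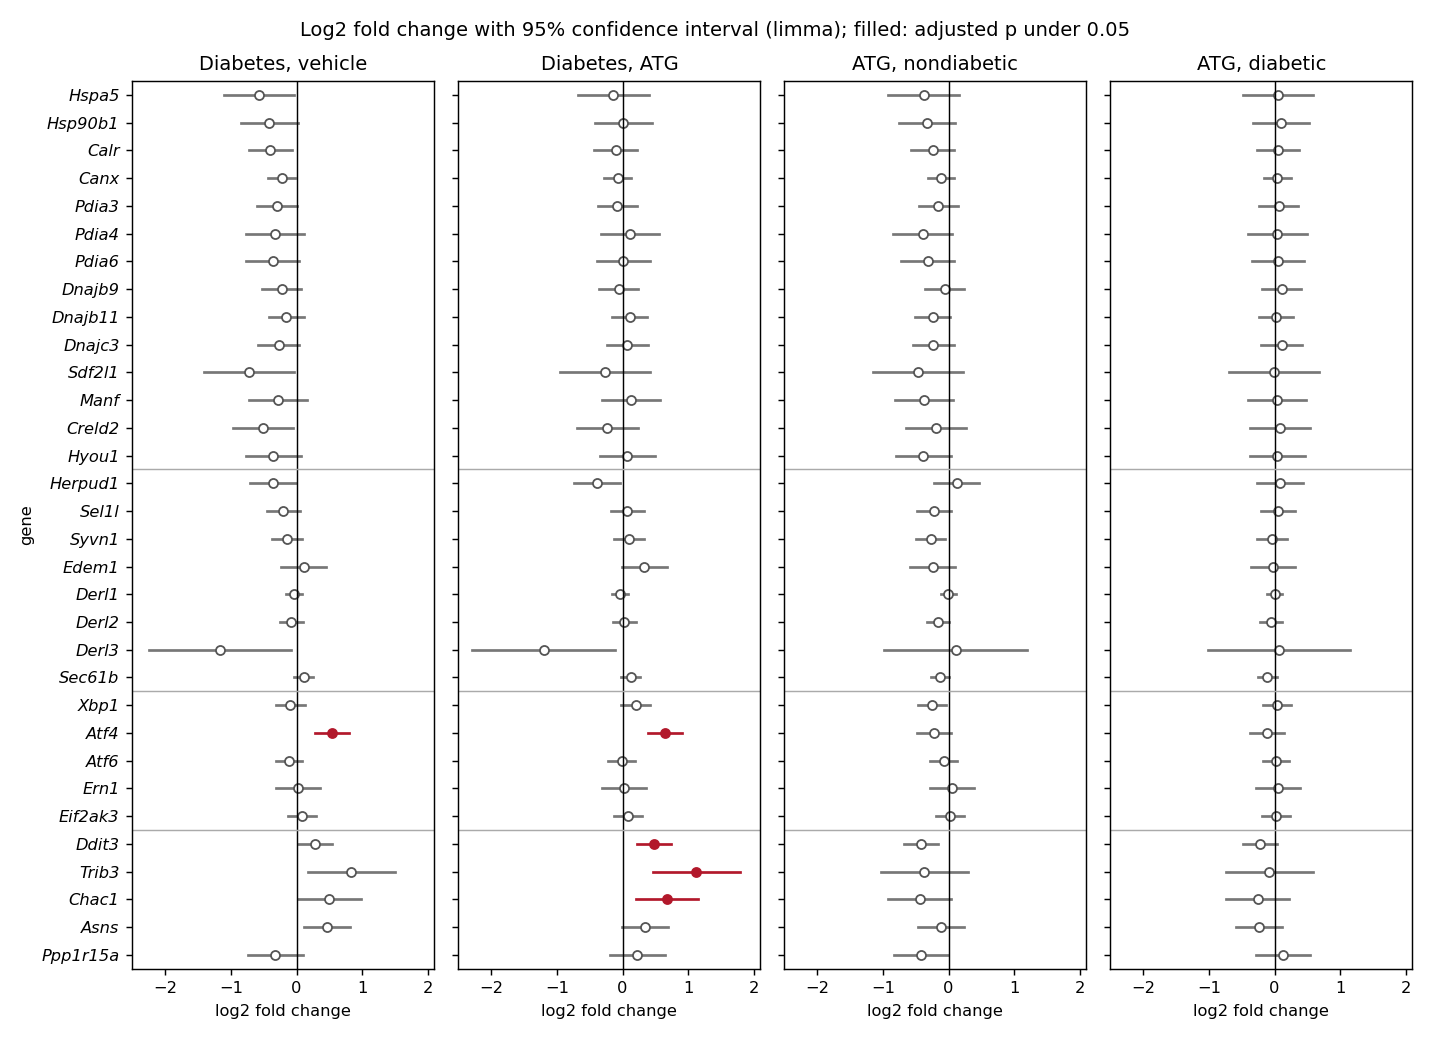
Log2 fold change (horizontal axis) of the 32 members (vertical axis, by role) with its 95% confidence interval in 4 comparisons, filled where the adjusted p was under 0.05. Atf4 is filled in both diabetes comparisons and Ddit3, Trib3 and Chac1 under ATG, and no interval is filled in either ATG comparison.

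Further genes of both pathways were taken from lists, whose counts are to be set against 10.2% of all genes called higher and 8.63% lower under vehicle, and 25.9% and 20.8% under ATG. Of 30 other targets of ATF4 and CHOP, 6 rose and none fell with diabetes under vehicle, and 13 rose and 3 fell under ATG. Tnfrsf10b, a death receptor, rose in both (0.70 and 0.70; limma, adjusted p = 0.00527 and 0.00112), as did Bbc3, a killer protein of mitochondria (0.72 and 0.74; adjusted p = 0.0212 and 0.00706). With the tubule covariate neither was called in either comparison (0.73 and 0.74 with adjusted p = 0.0855 and 0.156 for Tnfrsf10b, 1.02 and 1.11 with adjusted p = 0.093 and 0.146 for Bbc3), and the list held 3 and 1 genes called higher. These genes, and Gdf15, which rose by 1.79 and 1.40, are also known targets of p53. Mthfd2, a mitochondrial folate enzyme, rose under vehicle (0.84; adjusted p = 0.0227), while under ATG it was 0.33 (adjusted p = 0.218). It was at 1.54 and 1.21 with the tubule covariate (adjusted p = 0.0332 and 0.103). Nupr1, a stress-induced nuclear protein, rose under ATG (1.03; adjusted p = 0.00314). Cth, an enzyme of cysteine synthesis that is abundant in proximal tubule, fell under ATG (−1.32; adjusted p = 0.00423), as did Shmt2 and Vldlr. With the tubule covariate Cth was at 0.31 (adjusted p = 0.433).

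Of 13 genes for tRNA synthetases and tRNA export, 3 rose under vehicle and 5 under ATG, and none fell. Mars and Cars, for methionine and cysteine, rose in both comparisons (0.31 and 0.30 under vehicle, 0.23 and 0.39 under ATG). Of 15 eIF2 subunits, kinases and regulators, 2 rose under vehicle, and 4 rose and 1 fell under ATG. Eif2s1, the eIF2 subunit that is phosphorylated, rose by 0.18 and 0.20 (limma, adjusted p = 0.0389 and 0.0103). With the tubule covariate, 1 and 0 of the 13 and 0 and 0 of the 15 were called. Mars was then at 0.33 and 0.25, Cars at 0.45 and 0.59 and Eif2s1 at 0.17 and 0.20, none of them called. The heme-regulated kinase gene Eif2ak1 fell under ATG (−0.39; adjusted p = 0.00213), and Eif2ak2, the kinase PKR, rose (0.38; adjusted p = 0.019).

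Among 49 other secretory pathway genes, 4 rose and 1 fell under vehicle, and 9 rose and 5 fell under ATG, with a median difference of 0.0021 and 0.037. Pdia5, a disulfide isomerase, rose in both (0.53 and 0.87; limma, adjusted p = 0.0121 and 0.000354), and so did Kdelr2, which returns escaped ER proteins (0.24 and 0.27; adjusted p = 0.0259 and 0.00581). Under the tubule covariate Pdia5 was at 0.27 and 0.55 (adjusted p = 0.384 and 0.204) and Kdelr2 at 0.22 and 0.25 (adjusted p = 0.257 and 0.342), none of them called. Magt1, of the oligosaccharyltransferase, fell under vehicle (−0.51; adjusted p = 0.0258), and with the tubule covariate (−1.01; adjusted p = 0.0193). Of 18 other ERAD genes, 2 rose under vehicle, and 4 rose and 3 fell under ATG. Of 14 other sensors and death effectors, 3 rose under vehicle, and 5 rose and 3 fell under ATG. Bax, a pore-forming effector of apoptosis and a p53 target, rose 1.01 and 1.03 on the log2 scale (adjusted p = 0.000735 and 6.36e-05), and Bak1, of the same family, rose 0.54 and 0.47 (adjusted p = 0.00417 and 0.00155). Bax kept its call with the tubule covariate (1.08 and 1.12; adjusted p = 0.0193 and 0.0377), and Bak1 was at 0.63 and 0.57, no longer called (adjusted p = 0.0542 and 0.129).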

How the data were processed

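Glomerular RNA was sequenced from 12 mice, 3 in each of 4 groups taken from the labels. The authors deposited, for each mouse, a normalised log2 value for each of 14096 genes. Each of these genes reached 100 or more on the linear scale in some mouse, so genes low in every mouse are absent. Shares of all genes are shares of these. The submitters' processing notes name limma and mm10, and the aligner and counter are not given in the sources used here. Back on the linear scale, 83.8% to 84.4% of the values below 2000 reads fell within 0.02 reads of a whole multiple of the library's step, so the values are reads scaled by library. That share was too low for a count test as the main test, and log2 values were tested. The limma-voom alternative used the same recovered reads, rounded to whole numbers, and has that limit. No column was left unused for want of a sample (0).

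The deposited log2 values of all 14096 genes were fitted with limma 3.58.1 (R 4.3.3; group means over all 12 mice, trend in the prior variance), giving 5 comparisons: diabetes under vehicle and under ATG, ATG in diabetic and in nondiabetic mice, and the difference between both effects. P-values were adjusted by Benjamini-Hochberg over all genes, and a call is an adjusted p under 0.05. An exact permutation test of 3 against 3 mice cannot go below 0.1, so none was used. Intervals are 95%. The fit was tested on simulated data. Promoter windows came from a RefSeq table (GRCm38.p6). Figures were drawn with matplotlib 3.10.9 (Python 3.11.15).

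The members and all gene lists were chosen with earlier results of these data known. Every member is named. From each further list, up to 3 genes with the lowest p for diabetes under vehicle and up to 2 with the lowest p for ATG are named, and Gdf15, Shmt2 and Vldlr were named after their values were seen. A total of 21 alternatives were planned (low-value filter, pseudocount of 8, median-ratio scaling, no trend, limma-voom on recovered reads, only the groups compared, replicate block, tubule covariate, without the unnumbered mice, and each mouse left out). A covariate of immediate early genes was chosen after seeing the data, which makes 22.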

Additional observations from a re-analysis of the deposited data

How the results depend on the processing

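No median of the chaperones or of the ATF4 and CHOP targets changed by more than the spread between mice under the scaling, pseudocount, filter, trend or limma-voom alternatives, and these left Atf4 called in both diabetes comparisons. The number of members called with diabetes under vehicle was 1, and it was 0 with the tubule covariate, 12 without the unnumbered mice, and 0 to 3 as each mouse was left out. With diabetes under ATG it was 4, and it was 0 with the tubule covariate and 3 to 7 as each mouse was left out. For ATG in nondiabetic mice it was 0, and 0 to 7 as each mouse was left out. The median of the ATF4 and CHOP targets with the tubule covariate was 0.66 under vehicle and 1.00 under ATG. As each mouse was left out, it ran from 0.26 to 0.54 under vehicle, from 0.44 to 0.56 under ATG, and from −0.33 to −0.035 for ATG in diabetic mice. The cause of these changes was not tested.

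Mice with the same label number are different animals, and their deviations from the group means correlated at −0.59 to 0.339, so the number does not pair them. With a replicate block, 12 members were called with diabetes under vehicle, 2 higher (Atf4 and Trib3) and 10 lower, of which 9 were chaperones and the other Derl3. Under ATG 5 were called, Chac1 no longer (0.77; limma, adjusted p = 0.0521) and Sdf2l1 and Derl3 lower, and for ATG in nondiabetic mice 1 (Ddit3, lower). Of all 14096 genes, 778 were called higher and 597 lower under vehicle with the block, and 2534 and 1888 under ATG. For ATG in nondiabetic mice these counts were 231 and 715.

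Over all genes, calls with diabetes under vehicle numbered 2659, against 1375 with the replicate block, 270 with the tubule covariate, 1026 with the immediate early covariate and 801 to 3357 as each mouse was left out. Under ATG they numbered 6585, against 83 with the tubule covariate and 4314 without the unnumbered mice. For ATG in nondiabetic mice they numbered 736, against 0 with only the groups compared, 46 with the tubule covariate, 8 without the unnumbered mice, 240 with the immediate early covariate and 60 to 3531 as each mouse was left out. For the difference between both effects they numbered 77, against 19 without the trend, 8 with the block, 38 with the tubule covariate, 6 without the unnumbered mice, 0 with the immediate early covariate and 6 to 770 as each mouse was left out.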

Other observations

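Chaperones outside the ER were also measured. Of 12 mitochondrial chaperones and proteases, 1 fell with diabetes under vehicle and 9 fell under ATG, where 8.63% and 20.8% of all genes were called lower. Clpx, a subunit of a matrix protease, fell in both (−0.32 and −0.53; limma, adjusted p = 0.0155 and 0.00047). Hspd1 and Hspe1, which form the matrix folding chamber, fell under ATG (−0.74 and −0.79; adjusted p = 0.00591 and 0.00588), as did Hspa9, the matrix HSP70 (−0.51; adjusted p = 0.0164). After adding the tubule markers to the fit, 0 of the 12 were called, and their median was 0.14 under vehicle and 0.096 under ATG. In nondiabetic mice Clpx was called higher with ATG (0.35; limma, adjusted p = 0.0255). With the tubule covariate 0 of the 12 were called there, and with only the groups compared 0 of all genes were. Tubule markers had a median of 0.76 in the same comparison.

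Of 19 cytosolic heat shock genes, 1 rose and 1 fell with diabetes under vehicle, and 5 rose and 1 fell under ATG, against 10.2% of all genes higher and 8.63% lower under vehicle and 25.9% and 20.8% under ATG. Hspa4l, an HSP70 exchange factor, fell in both (−0.75 and −0.64; limma, adjusted p = 0.017 and 0.013). Bag3, a cochaperone of selective autophagy, rose in both (0.47 and 0.38; adjusted p = 0.0309 and 0.034). Hsf1, the master factor of the heat shock response, rose under ATG (0.27; adjusted p = 0.00895), as did Cryab, a small heat shock protein (0.58; adjusted p = 0.042). With the tubule covariate only Bag3 under vehicle was called (0.88; limma, adjusted p = 0.043). Hspa4l was then at −0.90 and −0.82 (adjusted p = 0.13 and 0.267), and none of the 19 was called under ATG. For ATG in nondiabetic mice 18 of the 19 had negative differences, with a median of −0.32 against −0.039 over all genes. None was called there by limma, with 7 at an unadjusted p under 0.05, where 5.22% of all genes were called and 30.2% had such a p, and limma-voom called 1.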
